A study of Mus musculus with 16 samples.

Results

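The forebrain identity transcription factors described here were 8 genes, Emx1, Emx2, Dlx1, Dlx2, Dlx5, Dlx6, Tbr1 and Bcl11b. Every probe set whose single gene symbol in the array annotation was one of these names was taken, which gave 12 of the 45101 probe sets and 8 of the 18194 named genes of the table. Bcl11b had 4 probe sets, Emx1 had 2 and the other 6 genes had 1 each. Given these genes, no measured value entered the choice of probe sets, but the genes were chosen with earlier results of these data known.

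Transcripts of dissected mouse cerebellum (cb) and of the remaining brain (Br, whole brain minus cerebellum) were profiled on Affymetrix arrays in SINE KO and WT animals of both sexes. The study asked what the loss of a brain isoform of Ppargc1a (PGC1α), a coactivator of transcription, does to expression in the cerebellum, with the rest of the brain as the control tissue. There were 16 arrays in 8 groups of 2, namely KO cb female, KO cb male, WT cb female, WT cb male, KO Br female, KO Br male, WT Br female and WT Br male. SINE KO mice were homozygous for a deletion of 4 bases in a short interspersed nuclear element (SINE), part of which is spliced into this isoform ahead of exon 2, and came from 1 founder line on the C57BL/6J background. WT mice were littermates matched for age and, as far as possible, for litter, and the labels name no treatment. The age of the mice that were arrayed is not given in the sources used here. Brain stem remnants were removed by gross dissection, RNA was taken from individual specimens, and the labels do not say whether a cb and a Br array of the same number came from 1 animal.

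The 16 deposited columns hold 5 distinct numbers in place of intensities. They were read as levels of a detection call: 2, detected (59.7% of all values), 1, marginal (1.51%), 0, not detected (37.3%), and -1 (0.267%) and -2 (1.19%), whose meaning is not settled and which were counted as not detected. This reading is stated by no source used here. A call says whether a transcript was detected on an array and carries no amount, so a gene that is detected in both brain parts can still differ in level. Each array had 25517 to 28155 probe sets detected (median 26892), and 21652 probe sets were detected on all 16 arrays. The 2 arrays of a group differed at 4025 to 5064 probe sets, so no library appeared to be deposited more than once within a group. In bulk tissue of this kind, fewer cells of a type and less RNA per cell cannot be told apart.

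These 8 proteins bind DNA and belong to several families. EMX1 and EMX2 are homeodomain proteins of the dorsal forebrain, which forms cortex and hippocampus. DLX1, DLX2, DLX5 and DLX6 are homeodomain proteins of the ventral forebrain, where GABAergic neurons of striatum, cortex and olfactory bulb arise, and their genes lie in pairs along the genome. TBR1 is a T-box protein of glutamatergic cortical neurons that have left the cell cycle, and BCL11B (CTIP2) is a zinc finger protein of subcerebral projection neurons of the cortex and of striatal projection neurons. The cerebellum forms from the hindbrain under other transcription factors, among them those of the Zic, Barhl and Lhx families.

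The start sites of 6 of the 8 genes were found in the RefSeq promoter table of mouse (build GRCm38.p6), which gives 250 bases before and 50 bases after each start. Promoters of 4 genes are shown because they carry the contrasts among the calls given afterwards. Tbr1 and Emx2 hold TAATTA, the palindromic core that many homeodomain proteins bind and that reads the same on both strands, and it is in capitals. Dlx1 and Dlx2 are neighbouring genes on opposite strands with different calls in the cerebellum. Tbr1 lies at chr2:61804203-61804502 on the plus strand, Emx2 at chr19:59458440-59458739 on the plus strand, Dlx1 at chr2:71529195-71529494 on the plus strand and Dlx2 at chr2:71546705-71547004 on the minus strand. Each is written 5′ to 3′ on the gene's own strand.
Tbr1: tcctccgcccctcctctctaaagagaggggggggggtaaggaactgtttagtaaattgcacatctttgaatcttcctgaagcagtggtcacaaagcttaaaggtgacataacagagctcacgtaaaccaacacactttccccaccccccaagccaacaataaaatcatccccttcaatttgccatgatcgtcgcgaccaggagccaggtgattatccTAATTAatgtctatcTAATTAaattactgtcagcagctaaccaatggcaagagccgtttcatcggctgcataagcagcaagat
Emx2: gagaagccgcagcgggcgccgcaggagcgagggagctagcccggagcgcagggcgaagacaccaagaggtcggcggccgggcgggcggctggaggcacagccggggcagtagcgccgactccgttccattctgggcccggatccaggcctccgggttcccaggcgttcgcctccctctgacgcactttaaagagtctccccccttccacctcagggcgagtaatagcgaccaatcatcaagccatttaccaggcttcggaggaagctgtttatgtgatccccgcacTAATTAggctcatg
Dlx1: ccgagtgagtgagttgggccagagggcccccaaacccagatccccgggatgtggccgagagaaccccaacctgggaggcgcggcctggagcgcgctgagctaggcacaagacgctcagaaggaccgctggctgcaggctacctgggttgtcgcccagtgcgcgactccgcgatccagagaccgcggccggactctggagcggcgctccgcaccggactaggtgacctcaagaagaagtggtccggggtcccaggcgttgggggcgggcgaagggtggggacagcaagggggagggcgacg
Dlx2: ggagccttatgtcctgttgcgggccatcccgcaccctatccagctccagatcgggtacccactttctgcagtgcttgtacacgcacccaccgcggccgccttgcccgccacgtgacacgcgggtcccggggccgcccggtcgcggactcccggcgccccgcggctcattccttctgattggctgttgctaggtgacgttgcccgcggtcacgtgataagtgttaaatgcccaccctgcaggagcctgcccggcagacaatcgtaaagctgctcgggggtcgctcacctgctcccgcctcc

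TAATTA stood in 1738 of the 32851 promoters of that table (5.29%). Tbr1 held it at positions 218 and 233 of its window and Emx2 at position 287, counted from the window's first base, while no match was found in the windows of Emx1, Dlx1, Dlx2 and Bcl11b. The GC content was 74% for Emx1, 69.3% for Dlx1, 66.3% for Dlx2 and 64.3% for Emx2, against 46% for Tbr1, 43% for Bcl11b and a median of 52.7% over all promoters. The 4 homeobox genes had 26 to 37 CpG dinucleotides in the window, Bcl11b had 9 and Tbr1 had 7, which is also the median of all promoters. These are descriptions of letters, and no binding or methylation was measured here.

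Each of the 8 genes except Dlx6 was detected on every Br array, and 4 of them (Emx1, Dlx1, Dlx5 and Tbr1) were detected on no cb array. Emx2 was detected on 2 of 8 cb arrays, Dlx2 on 7 of 8, and Bcl11b, through 1 of its probe sets, on all 8. Dlx6 was detected on none of the 16 arrays. Of the 12 probe sets, 7 (from 6 genes) were detected on fewer cb than Br arrays past the threshold of the test, where 0.991% of all probe sets were, and 0 on more. The 7 are all of the 12 that could be tested, and a probe set on every Br array can be tested only when it is missing from most cb arrays. Between KO and WT mice the calls were the same on all Br arrays and differed by at most 2 of 4 arrays in the cerebellum, where no test used could have called a difference.

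**Figure D1:**
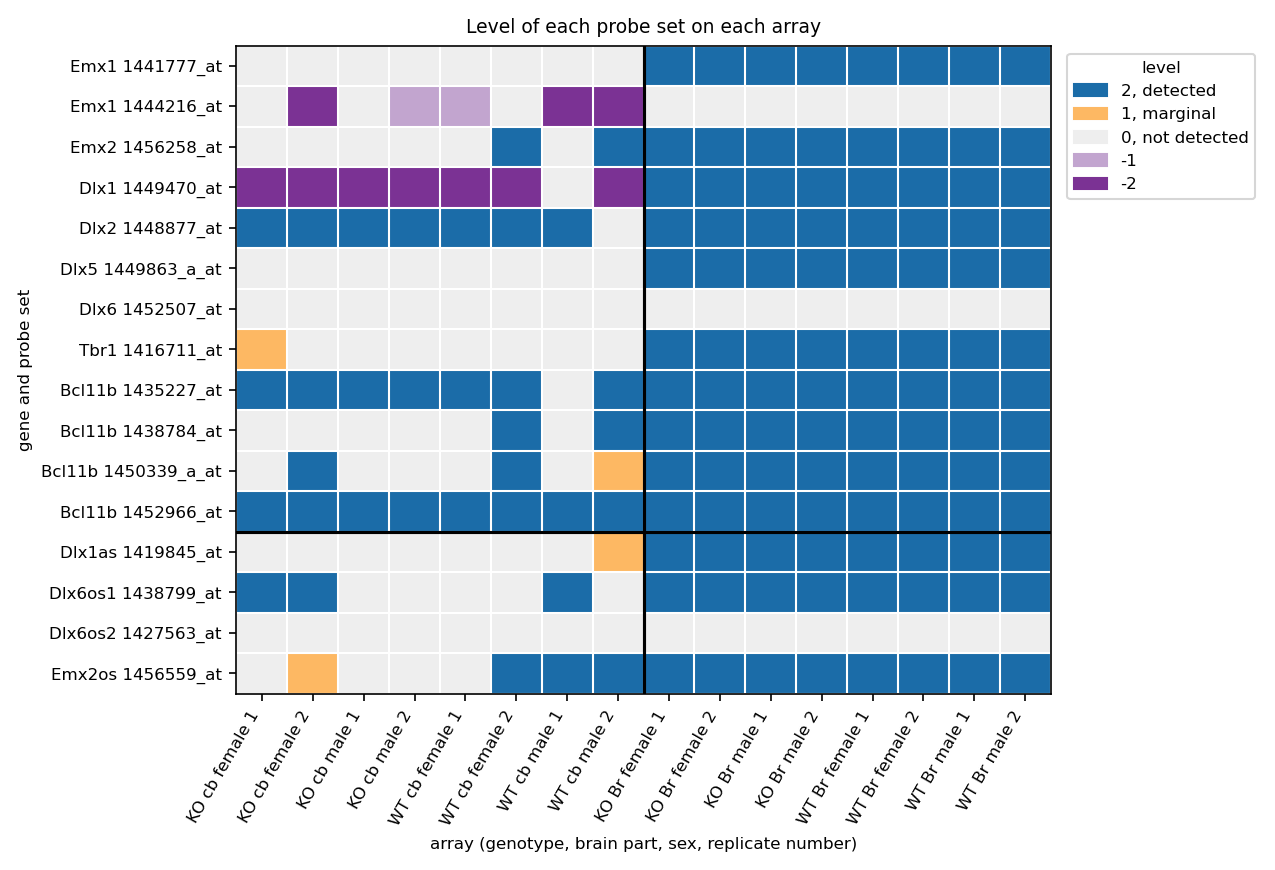
Level of each of the 12 probe sets (rows, gene and probe set name) on each of the 16 arrays (columns, named by genotype, brain part, sex and replicate number), coloured from 2, detected, to -2. The 8 Br columns are uniform down the page, with 10 probe sets detected on each, and the cb columns vary between 2 and 6 detected probe sets.

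Among the genes of the dorsal forebrain, Emx1, which marks cortical excitatory neurons and their progenitors, was at level 0 with probe set 1441777_at on all 8 cb arrays and at level 2 on all 8 Br arrays, so the brain parts did not overlap. Its second probe set, 1444216_at, was detected on none of the 16 arrays and lay below 0 on 5 cb arrays (KO cb female replicate 2, KO cb male replicate 2, WT cb female replicate 1 and both WT cb male arrays). The 2 Emx1 probe sets therefore gave different calls in Br, and nothing in the table says which of them reports the transcript better. Emx2, which sets the areas of the developing cortex, was detected with 1456258_at on WT cb female replicate 2 and WT cb male replicate 2 and on no other cb array, against all 8 Br arrays. All 4 KO cb arrays and 2 of 4 WT cb arrays thus lacked a call for Emx2. Tbr1, a regulator of deep-layer cortical neurons, was not detected with 1416711_at on any cb array, with a marginal call on KO cb female replicate 1, and was detected on all 8 Br arrays.

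Among the Dlx genes, Dlx1, which acts with Dlx2 in progenitors and interneurons of the ventral forebrain, was detected with 1449470_at on no cb array and on all 8 Br arrays. Its cb values stood at level -2, counted as not detected, on 7 arrays and at 0 on WT cb male replicate 1. Dlx2, probe set 1448877_at, was detected on 7 of 8 cb arrays, all but WT cb male replicate 2, and on all 8 Br arrays. The neighbouring Dlx1 and Dlx2 therefore had opposite calls on 7 cb arrays and the same call on every Br array. Dlx5, which lies downstream of Dlx1 and Dlx2 in the differentiation of forebrain GABAergic neurons, was detected with 1449863_a_at on no cb array and on all 8 Br arrays. Dlx6, the partner of Dlx5 beside it on the genome, stood at level 0 with 1452507_at on all 16 arrays, and its 1 probe set therefore compares nothing between the groups.

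The 4 probe sets of Bcl11b gave 4 patterns in cb and the same pattern in Br, where each was detected on all 8 arrays. With 1452966_at Bcl11b was detected on all 8 cb arrays, and with 1435227_at on 7, all but WT cb male replicate 1. With 1438784_at it was detected on 2 cb arrays, WT cb female replicate 2 and WT cb male replicate 2, which are the arrays on which Emx2 was detected. With 1450339_a_at it was also detected on 2, KO cb female replicate 2 and WT cb female replicate 2, with a marginal call on WT cb male replicate 2. For Bcl11b, detection in the cerebellum thus differed with the probe set, and the calls do not say whether its level differed between the brain parts.

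The brain parts were compared with Fisher's exact test, two-sided, on the detected calls of 8 cb against 8 Br arrays. Of all probe sets, 3873 had a number of detected arrays (5 to 11 of 16) that lets this test reach an unadjusted p under 0.05, and the Benjamini-Hochberg adjustment ran over these. It called 7 of the 12 probe sets lower in cb, where 447 of the 3873 (11.5%) were called lower, which is 0.991% of all 45101. Because of that filter, the count of 7 carries no more than the calls already given. Emx1 1441777_at, Dlx1, Dlx5 and Tbr1 had an exact p of 0.000155, the smallest that 8 against 8 arrays allow, and an adjusted p of 0.0043. Emx2, Bcl11b 1438784_at and Bcl11b 1450339_a_at had an exact p of 0.00699 and an adjusted p of 0.0409. Adjustment over all 45101 probe sets instead gave adjusted exact p-values of 0.0501 and 0.476 for the same probe sets and called 0 of the 12 and 0 probe sets in all (0%). A discrete form of that adjustment, which allows for the p-values each probe set can take, called the same count of 7 and 1052 probe sets in all (2.33%), and 1247 (2.76%) had an unadjusted exact p under 0.05. Adjustment over all probe sets needs 141 complete switches before any can pass, and there were 140, 115 of them detected in Br only (0.255% of all) and 25 in cb only (0.0554%).

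Set against the whole table without any test, the median of cb minus Br over the 12 probe sets was -6 arrays, and over all probe sets it was 0. Most probe sets were on every array of both brain parts (21652) or on none (12180), so the median over all could only be 0. Of 23842 probe sets detected on all Br arrays, 90.8% were also detected on all cb arrays and 0.482% on none. Of the 10 probe sets of the 8 genes that were detected on all Br arrays, 1 was on all cb arrays and 4 were on none. The 8 genes are forebrain factors chosen with earlier results of these data known, and the 10 were taken for full detection in Br. Their contrast with the whole table was therefore largely set by that choice, and it adds nothing to the calls already given. With a gene counted as detected where any of its probe sets was, Emx1, Dlx1, Dlx5 and Tbr1 were lower in cb by 100 percentage points of the arrays and Emx2 by 75, with adjusted exact p-values of 0.00311 and 0.0352, Dlx2 by 12.5, and Dlx6 and Bcl11b were called on the same number of arrays in both brain parts. Marginal calls read as detected removed Bcl11b 1450339_a_at from the called probe sets, at an adjusted exact p of 0.1.

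**Figure D2:**
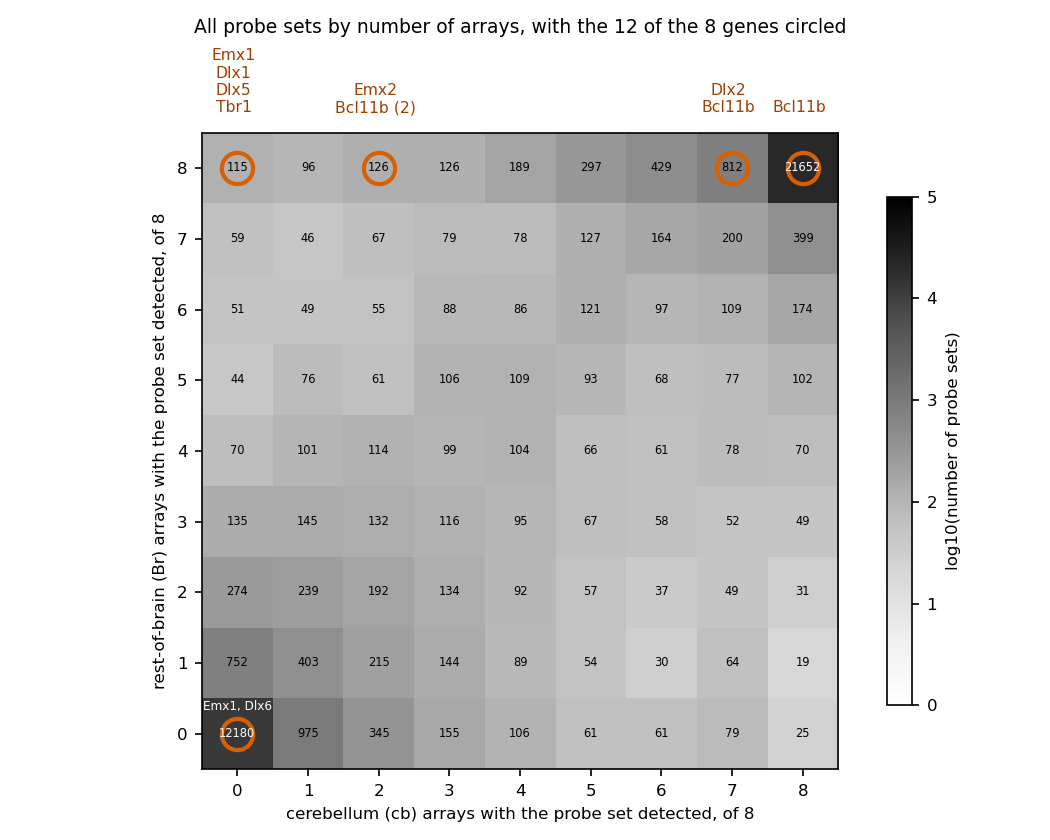
Number of probe sets, as log10 by colour, at each combination of cb arrays (horizontal axis, 0 to 8) and Br arrays (vertical axis, 0 to 8) with the probe set detected, with the positions of the 12 probe sets circled. Most probe sets sit in the corners of 8 and 8 (21652) and 0 and 0 (12180), and 4 of the 12 sit with 115 probe sets in all at 0 cb and 8 Br arrays.

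The separation of the brain parts was also read within each genotype and each sex. In KO mice 6 of the 12 probe sets were detected on all 4 Br and none of the 4 cb arrays (Emx1 1441777_at, Emx2, Dlx1, Dlx5, Tbr1 and Bcl11b 1438784_at), where 0.836% of all probe sets were. In WT mice there were 4 (Emx1 1441777_at, Dlx1, Dlx5 and Tbr1), with 0.435% of all probe sets. Among females there were the same 4 (0.594% of all probe sets), and among males 5, with Bcl11b 1450339_a_at added (0.847%). The smallest p of 4 against 4 arrays is an exact 0.0286, before any adjustment. In no stratum was any of the 12 detected on all cb and no Br arrays. Of all probe sets, 0.419% were so in KO mice, 0.151% in WT mice, 0.197% in females and 0.596% in males. Emx1 1441777_at, Dlx1, Dlx5 and Tbr1 were separated over all arrays, so their separation in each stratum follows from that and is no further check.

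KO and WT arrays were compared to ask whether loss of the SINE isoform moved any of these genes. All 10 probe sets that were detected in Br were detected on all 4 KO Br and all 4 WT Br arrays, so no call differed by genotype in that brain part. In the cerebellum, Emx2 and Bcl11b 1438784_at were each detected on 0 of 4 KO arrays and 2 of 4 WT arrays (Fisher's exact p = 0.429). Dlx2 and Bcl11b 1435227_at were each detected on all 4 KO cb arrays and 3 of 4 WT cb arrays, and Bcl11b 1450339_a_at on 1 of 4 and 1 of 4. Emx1, Dlx1, Dlx5, Dlx6 and Tbr1 had the same number of detected arrays in KO and WT in each brain part.

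For these 12 probe sets the genotype tests across all arrays could give no call. Each is detected on all 8 Br arrays or on none, so even a complete switch in the cerebellum would leave 4 against 8 or 0 against 4 arrays, with a Fisher's exact p of 0.0769, and a permutation p of 0.0556 with the genotype permuted within sex and brain part. On the 4 KO cb and 4 WT cb arrays alone it would give an exact p of 0.0286 before adjustment. Over all probe sets, Fisher's exact test on 8 KO against 8 WT arrays called 0 (0%), both with the adjustment over 3873 and over all probe sets, and 0 with a discrete form of the adjustment. At an unadjusted exact p under 0.05 there were 38 of 45101 probe sets (0.0843%). Permuting the genotype within sex and brain part (1296 arrangements) also called 0 probe sets, with 31 at an unadjusted permutation p under 0.05. The smallest permutation p possible is 0.00154, too high for a few probe sets to pass an adjustment over all 45101. Any probe set with uniform calls in Br and a complete switch in cb would have the same 0.0769 and 0.0556. These counts of 0 therefore do not show that genotype changed no call. Within each sex and brain part, where 2 arrays stood against 2 and no exact p can go below 0.333, 0 of the 12 were detected on both arrays of 1 genotype and neither of the other. Over both sexes, 0.0288% of all probe sets were on no KO cb and all WT cb arrays and 0.00887% the other way, 0.00443% and 0.0155% in Br, and 0 of the 12. For all probe sets the share by sex was 0.71% KO-lower and 0.743% KO-higher in the female cb, 0.792% and 0.313% in the male cb, 0.49% and 0.45% in the female Br, and 0.448% and 0.576% in the male Br.

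Whether the brain parts differed more in one genotype was tested by the same permutation on the difference of the differences. It called 0 probe sets, with 31 of all (0.0687%) at an unadjusted permutation p under 0.05. Its smallest possible permutation p is also 0.00154, so the 0 calls do not show that no probe set differed in this way. For the 12 probe sets this test too can go no lower than 0.0556, so whether the 6 separated probe sets in KO differ from the 4 in WT could not be tested with these calls.

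The same limit holds for the 12 probe sets between females and males. Over all probe sets Fisher's exact test called 0 between the sexes (0%), with 129 (0.286%) at an unadjusted p under 0.05 and 10 called by the discrete adjustment (0.0222%). Bcl11b 1450339_a_at was detected on 6 female and 4 male arrays, and Emx2, Dlx2 and the other Bcl11b probe sets differed by at most 1 array between the sexes.

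The number of the 12 probe sets detected on an array was 3 and 4 in KO cb females, 3 and 3 in KO cb males, 3 and 6 in WT cb females and 2 and 4 in WT cb males, against 10 on each Br array. The cb arrays averaged 3.5 ± 1.2 (SD, n = 8) and lay apart from Br throughout. KO cb averaged 3.25 ± 0.5 and WT cb 3.75 ± 1.71 (SD, n = 4 each), and their ranges overlapped. The highest cb array was WT cb female replicate 2, which held 1 of the 2 calls of Emx2, 1 of the 2 of Bcl11b 1438784_at and 1 of the 2 of Bcl11b 1450339_a_at. Without it the cb arrays lay between 2 and 4.

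That array also stood highest among cb arrays for a summed list of markers of forebrain neurons, made of striatal, cortical and hippocampal, and interneuron genes with 38 probe sets, which holds none of the 8 genes. It had 28 of them detected, the other cb arrays 19 to 24, and the Br arrays 34 to 36. By class, striatal projection neuron markers (16 probe sets) were detected at 12 on that array, at 7 to 12 over all cb arrays and at 13 to 14 on Br arrays. Cortical and hippocampal markers (14 probe sets) were at 12 on that array, 8 to 12 over cb arrays and 14 on Br arrays, and interneuron markers (8 probe sets), for which that array did not stand highest, were at 4 on it, 3 to 6 over cb arrays and 6 to 8 over Br arrays. The probe set of Htr3a, 2 of the 3 of Kcnv1 and 1 of the 2 of Lhx6 were on no cb and all 8 Br arrays. Probe sets of Drd2, Penk, Ppp1r1b, Neurod6, Cck, Itpka, Sst and Npy, among others, were on all 8 cb and all 8 Br arrays. For Pde10a, 1 probe set was on no cb array and 1 Br array, and for Rgs9, 1 was on no array of either brain part. Both genes also had probe sets on all 8 cb and all 8 Br arrays. WT cb female replicate 2 was lowest among cb arrays for cerebellar markers, with 24 of 34 probe sets, against 24 to 33 over all cb arrays and 20 to 31 over Br arrays. The Br array with 31 was KO Br female replicate 1, which equals the cb median of 31. WT cb male replicate 2, the other array with Emx2, had 22 forebrain marker probe sets, the median of the cb arrays. The part of other tissue in these calls was not tested. Without WT cb female replicate 2, the 7 probe sets called between the brain parts were still 7, and the adjusted exact p of Emx2 was 0.0116. That array held cb calls of Emx2, Bcl11b 1438784_at and Bcl11b 1450339_a_at, so leaving it out could only widen their differences. The result is therefore no check of those calls.

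**Figure D3:**
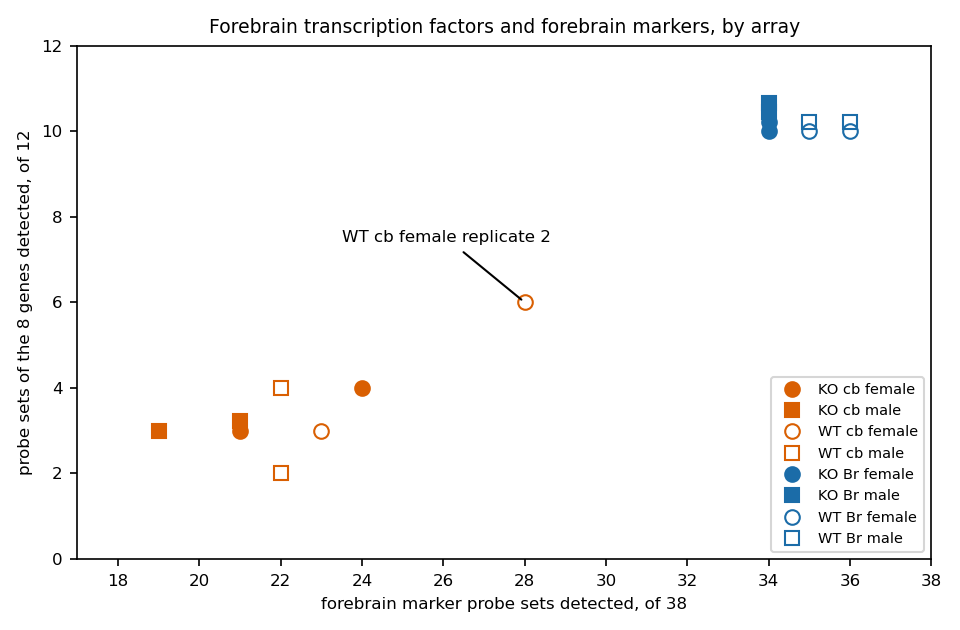
Probe sets of the 8 genes detected (vertical axis, of 12) against forebrain marker probe sets detected (horizontal axis, of 38) on each of the 16 arrays, with colour for brain part, filled symbols for KO and open symbols for WT, circles for females and squares for males; arrays with equal values are drawn slightly above each other. The cb arrays lie at 2 to 6 and 19 to 28, the Br arrays at 10 and 34 to 36, and WT cb female replicate 2 is the cb array nearest to Br.

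Transcripts from the same loci, chosen after their values were seen, were read beside the genes. Dlx1as, transcribed from the strand opposite to Dlx1, was detected on no cb array (marginal on WT cb male replicate 2) and on all 8 Br arrays, with an adjusted exact p of 0.0043. It was thus detected on the same arrays as Dlx1. Dlx6os1, a noncoding transcript of the Dlx5 and Dlx6 locus, was detected on 3 cb arrays (both KO cb female arrays and WT cb male replicate 1) and all 8 Br arrays, with an adjusted exact p of 0.0944, while Dlx6os2 was detected on none of the 16. Emx2os, transcribed opposite to Emx2, was detected on 0 of 4 KO cb and 3 of 4 WT cb arrays (Fisher's exact p = 0.143). It was marginal on KO cb female replicate 2 and was detected on all 8 Br arrays. The 3 WT cb arrays with Emx2os included both arrays with Emx2. The permutation p for a difference between genotypes in the brain part contrast of Emx2os was 0.167.

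A list of 39 other transcription factors of the forebrain had 33 genes on the array with 99 probe sets. Of these, 3 were called lower in cb and 3 higher, at a background of 0.991% and 0.477% of all probe sets, the median of cb minus Br was 0 arrays, 43 were on all 16 arrays and 17 on none. Those called lower were Fezf2, which specifies subcerebral projection neurons (0 cb and 8 Br arrays), Lhx6 1425094_a_at, of interneurons from the medial ganglionic eminence (0 and 8, adjusted exact p = 0.0043 each), and Bcl11a 1426552_a_at, a paralogue of Bcl11b (1 and 8, adjusted exact p = 0.0138). The 1 cb array with Bcl11a 1426552_a_at was again WT cb female replicate 2, and 2 other probe sets of Bcl11a were on all arrays. Those called higher in cb were Ebf1 1439789_at (8 cb and 0 Br arrays) and 1457441_at (7 and 0), and Pax6 1452526_a_at (7 and 0), a gene that is also used by cerebellar granule cells. Of the other probe sets of these genes, 3 of Ebf1 and 1 of Pax6 were on all 16 arrays, so both genes were detected in both brain parts. Isl1 1450723_at, of striatal neurons, was on 0 cb and 5 Br arrays (adjusted exact p = 0.0944) and Otx1 1437601_at on 1 and 6 (0.126). Neurod2 1418995_at and Eomes 1426001_at were each on 7 cb arrays and 1 Br array (0.0507). None of these passed the threshold. Another probe set of Neurod2, 1435411_at, was on all 8 cb and all 8 Br arrays, so that gene was detected in both brain parts. Eomes 1435172_at was on 7 cb and 3 Br arrays (adjusted exact p = 0.305).

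A list of 18 transcription factors of hindbrain and cerebellum had 17 genes and 32 probe sets on the array. Of these, 0 were called lower in cb and 6 higher, at a background of 0.991% and 0.477% of all probe sets. The median of cb minus Br was 0 arrays, 13 probe sets were on all 16 arrays and 3 on none. Probe sets of En2, Zic1 and Neurod1 were among those on all 16, and Gbx2 was on 2 cb and 6 Br arrays. Barhl1 1418812_a_at and Barhl2, of granule cell and other rhombic lip lineages, and Zic2, of granule cell progenitors, were on all 8 cb and no Br arrays. Lhx1, of Purkinje cells, was on 8 cb and no Br arrays with 1450428_at and on 7 and none with 1421951_at, and Rora 1458145_at was on 8 and 2. Of the other Rora probe sets, 6 were on all 16 arrays, so that gene was detected in both brain parts.

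**Figure D4:**
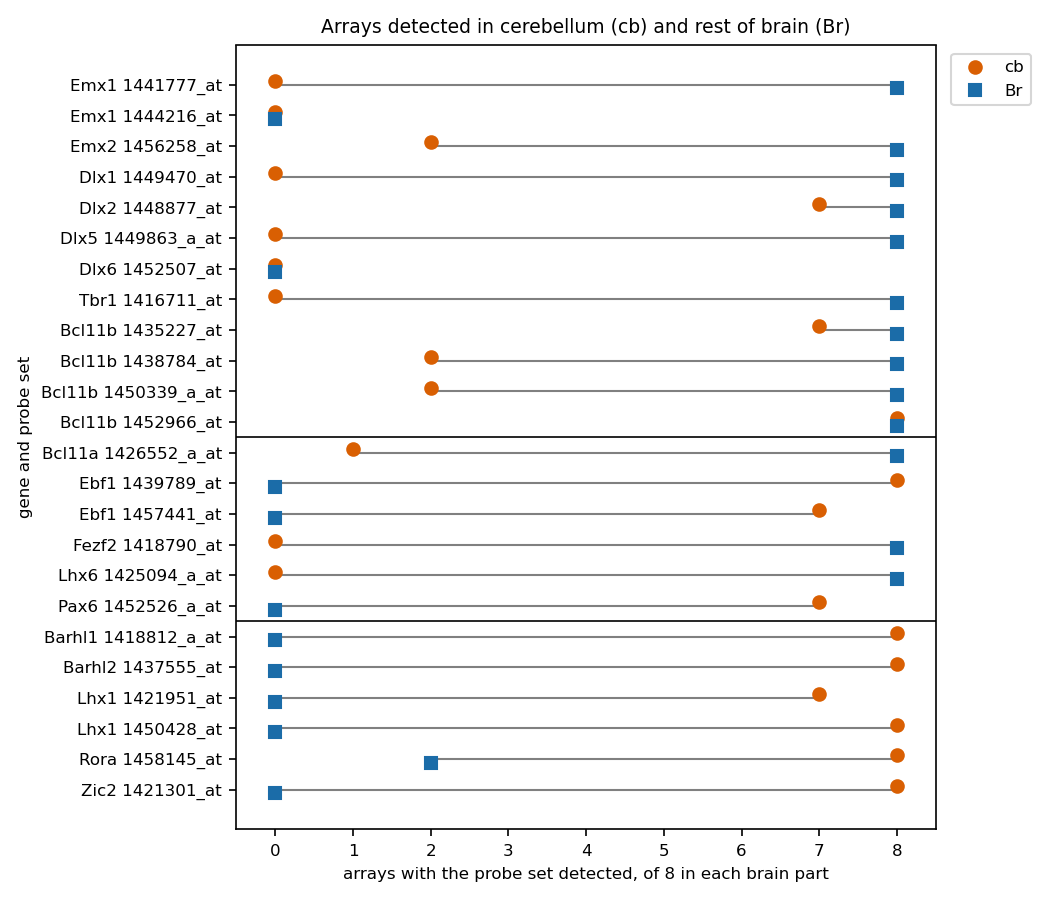
Arrays with the probe set detected, of 8 cb (circles) and of 8 Br (squares), for the 12 probe sets of the 8 genes (top) and for those probe sets of the other forebrain list (middle) and the hindbrain and cerebellum list (bottom) that passed the test between the brain parts. All 7 called probe sets of the 8 genes have fewer cb than Br arrays, the middle block holds 3 of each direction, and the 6 at the bottom have more cb arrays.

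Probe sets of other genes whose 16 calls were most like those of the 8 genes were counted by the number of arrays that differed. A call was here detected or not, with levels 1, 0, -1 and -2 all taken as not detected. Levels could thus differ where calls did not: Dlx1 stood at -2 on 7 cb arrays, and Tbr1 was marginal on KO cb female replicate 1. Emx1 1441777_at, Dlx1, Dlx5 and Tbr1 were detected on the same arrays as each other and as 93 probe sets of 89 other genes. The first of these in the alphabet were 3110039M20Rik, 9130024F11Rik and Actn2. Emx2 and Bcl11b 1438784_at had the same calls as each other and as 14 other probe sets, among them Cartpt, Cckbr and Cgref1, and Bcl11b 1450339_a_at the same as 16, among them Camk2a, Cpne7 and Crabp1. None of these patterns was particular to the 8 genes.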

How the data were processed

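RNA of cerebellum and rest of brain was amplified from the 3′ end and hybridised to Affymetrix arrays. Probe set names were of a mouse array, although the methods cite a human one. For signal extraction by the authors, MAS5 is given in the methods and in the submitters' processing notes, whereas the results text gives RMA with a signal-to-noise method. The deposited table held 5 distinct values and no intensities, on a scale that no source states. As 4-byte numbers they differ in their first byte, read as 2, 1, 0, -1 or -2. Values at 2 (above 5e-38 as deposited) were counted as detected. In the array annotation 34958 probe sets had 1 symbol, 932 had several and 9211 are unnamed here. The Entrez identifiers of 34754 were matched to RefSeq and 0 had another symbol.

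Detected calls were compared with Fisher's exact test, two-sided, per probe set (scipy 1.17.1, pandas 2.3.3, numpy 2.4.6, matplotlib 3.10.9, Python 3.11.15), with Benjamini-Hochberg adjustment over the probe sets that can reach p under 0.05, at an adjusted p under 0.05. Genotype was also permuted within sex and brain part. Alternatives were adjustment over all probe sets, a discrete form of it, 1 call per gene, marginal as detected, probe sets with levels below 0 or with shared-sequence names left out, each replicate left out and a replicate block. The functions were tested on simulated calls. The tests of intensities in the study's methods could not be run on calls. The members, gene lists, tests and adjustments were chosen with earlier results of these data known. All members were named, with the called genes of each list and up to 4 others, and for likeness at most 3 genes in alphabetical order. Replicates are individual specimens per the methods. Arrays give calls and no read depth, and their number limits the precision.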

Additional observations from a re-analysis of the deposited data

Results flagged for a closer look

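For 2 probe sets, 1 cb array stood apart from the 7 others. Dlx2 1448877_at was detected on 7 cb arrays and not on WT cb male replicate 2, and Bcl11b 1435227_at was detected on 7 cb arrays and not on WT cb male replicate 1. With calls that are either present or absent, 1 differing array of 8 always meets the rule used (Dixon's gap test at the 95% level), which by chance picks about 1 in 20 groups of measured values, so these are values only.

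Levels below 0, which were counted as not detected in every comparison and so decide the cb calls of Dlx1 on 7 arrays, stood on 5 cb arrays and no Br array for Emx1 1444216_at and on 7 cb arrays and no Br array for Dlx1 1449470_at. Such levels occurred for 2672 probe sets (5.92%) on any array, with 632 to 806 on a cb array and 512 to 741 on a Br array. On 5 or more cb arrays and no Br array they stood for 19 probe sets, against 3 the other way round, and on 7 or more cb arrays and no Br array for 2. Dlx1 was the 1 among these 2 that was detected on all Br arrays. Of the 115 probe sets detected on all Br and no cb arrays, 8 had any cb level below 0. What these levels record was not tested.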

How the results depend on the processing

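The count of 7 of the 12 probe sets called lower in cb was 5 to 7 under every alternative but 1: with adjustment over every probe set it was 0, as were the counts of other forebrain factors lower (3 otherwise) and higher (3 otherwise) in cb, of hindbrain and cerebellum factors higher in cb (6 otherwise) and of all probe sets (662 otherwise). The discrete adjustment called 1052 probe sets in all and 5 other forebrain factors higher in cb. With 1 call per gene, 283 genes were called in all, 0 other forebrain genes were higher in cb and the median Br array had 7 genes detected. Leaving out probe sets with a level below 0 put that median at 9 probe sets, and gave no value for Dlx1 and Emx1 1444216_at. Without the WT female pair of number 2, an alternative chosen after seeing the data, 5 other forebrain factors were higher in cb.

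Leaving out 1 replicate at a time gave 7 to 7 called probe sets of the 12, 6 to 7 separated in KO and 4 to 5 in WT mice, 3 to 5 other forebrain factors higher (5 without WT cb female replicate 2) and 3 to 4 lower in cb, 6 to 7 hindbrain and cerebellum factors higher and 705 to 986 of all probe sets. Of the 12, the number detected in 1 genotype and not the other was 0 to 2 in the female cb (2 without WT cb female replicate 1) and 0 to 3 in the male cb (3 without WT cb male replicate 1, 1 without WT cb male replicate 2), where 1 WT array then stood alone and no test was made. The 8 values of single probe sets that lost a call were the 7 probe sets with adjustment over every probe set and Bcl11b 1450339_a_at with marginal calls as detected.

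Same-numbered arrays correlated in their deviations at -0.0181 to 0.0434 between brain parts and -0.00464 to 0.0647 between genotypes. These calls do not settle whether a cb and a Br array came from the same animal. If they did, the genotype and sex tests over all arrays would count an animal more than once. With the replicate block (exact sign test over 8 pairs) 7 of the 12 were called, with 759 probe sets in all, and the block changed no call of the 12.

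The calls hold no amounts, so differences in level between arrays with the same call were not detectable, and the tests by genotype and sex could call none of the 12.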

Other observations

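The arrays also differed in markers of tissues at the edges of the dissection. Choroid plexus markers (10 probe sets), of the epithelium that secretes cerebrospinal fluid, were detected at 6 to 9 on cb arrays and at 9 on each Br array. Pituitary markers (8 probe sets of hormone genes) were at 0 to 7 on cb arrays, with the 7 on WT cb female replicate 2, and at 0 to 8 on Br arrays. Markers of brain stem and serotonin neurons (5 probe sets) were at 0 to 5 on cb arrays, with 5 on both KO cb female arrays, and at 0 to 2 on Br arrays. Granule cell markers (14 probe sets) were at 10 to 13 on cb arrays and 7 to 12 on Br arrays. Purkinje cell markers (20 probe sets) were at 14 to 20 on cb and 13 to 19 on Br arrays. The highest Br counts of both, 12 and 19, were on KO Br female replicate 1. The probe sets of Cbln1, Zic1, Neurod1 and Calb1 were on all 8 Br arrays. Barhl1 1418812_a_at was on 0 Br arrays, Fat2 on 1, those of Gabra6 on 5 and 2 and those of Pcp2 on 1, 4 and 1. Foxp2, in the Purkinje list, also stands in the list of forebrain factors. The part of cerebellar tissue in Br was not tested.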
